A study of Homo sapiens with 4 samples.

Results

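Accessible sites were described around 9 human genes: FOSL1, FOSL2, FOS, JUN, JUNB and ATF3, which encode subunits of the transcription factor AP-1, YAP1, which encodes the Hippo pathway co-activator YAP, and CYR61 and CTGF, textbook target genes of YAP. Each gene was given 1 window on the hg19 build, defined by its coordinates, and the 9 windows covered 595 kb. The windows were chosen with earlier results of these data known. They ran from 65640 to 65690 kb of chromosome 11 for FOSL1, from 28595 to 28660 kb of chromosome 2 for FOSL2, from 75725 to 75770 kb of chromosome 14 for FOS, from 59225 to 59270 kb of chromosome 1 for JUN and from 12885 to 12925 kb of chromosome 19 for JUNB. The window of ATF3 ran from 212720 to 212815 kb of chromosome 1, that of YAP1 from 101960 to 102125 kb of chromosome 11, that of CYR61 from 86025 to 86070 kb of chromosome 1 and that of CTGF from 132250 to 132295 kb of chromosome 6. A member was any ATAC-seq peak overlapping a window. After peaks of the 4 libraries that overlapped by at least 1 bp had been merged, the windows held 227 of the 373425 regions on chromosomes 1 to 22 and X. The windows also hold neighbouring genes, and no hg19 gene annotation was used here, so regions are named by window and position and none is called a promoter or an enhancer.

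The study treated BCPAP cells, an established human papillary thyroid carcinoma line that carries an activating BRAF mutation, with the demethylating agent 5-azacytidine, and asked where chromatin accessibility differed most. ATAC-seq was done on 2 libraries of treated cells and 2 libraries of untreated BCPAP cells, and 1 peak list was deposited for each library. The dose and length of treatment and the age of the cultures were not given in the labels, and all 4 libraries came from the same single line. Nothing in the labels makes the replicates separate cultures, and p-values therefore measure only a spread that may be technical. In ATAC-seq a transposase cuts exposed DNA and inserts sequencing adapters, so open chromatin appears as a pile-up of reads.

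AP-1 is a dimer of basic leucine zipper proteins: FOS, FOSL1 and FOSL2 pair with JUN or JUNB, and ATF3, a stress-induced member of the ATF branch, can pair with JUN proteins or with itself. AP-1 genes are immediate or delayed targets of the MAPK cascade, which oncogenic BRAF keeps active in papillary thyroid carcinoma. YAP has no DNA-binding domain and acts through TEAD factors, which often sit close to AP-1 on the same enhancers. CYR61 and CTGF, named CCN1 and CCN2 in RefSeq, encode secreted matricellular proteins and are common readouts of YAP activity. 5-Azacytidine is incorporated into nucleic acids and traps DNA methyltransferases, which lowers CpG methylation.

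Promoter sequences are shown for 4 of the genes, since the windows were drawn around these genes and the treatment acts on CpG sites. They come from RefSeq on GRCh38.p14, each with 250 bases before and 50 bases after the gene's start and read 5′ to 3′ on the gene's own strand. The table held 8 promoters for 7 of the 9 genes; FOSL1 and CYR61 are named only. Positions on GRCh38.p14 were not carried over to the hg19 peaks, so no peak is placed on these bases. Capitals mark matches to TGANTCA (the AP-1 element), TGACNTCA (the cyclic AMP response element) or GGAATG (the TEAD element), searched on both strands, and no match overlapped another in these promoters. FOSL2 lies at chr2:28392608-28392907 on the plus strand, FOS at chr14:75278578-75278877 on the plus strand, JUN at chr1:58783998-58784297 on the minus strand and CTGF at chr6:131951323-131951622 on the minus strand.
FOSL2: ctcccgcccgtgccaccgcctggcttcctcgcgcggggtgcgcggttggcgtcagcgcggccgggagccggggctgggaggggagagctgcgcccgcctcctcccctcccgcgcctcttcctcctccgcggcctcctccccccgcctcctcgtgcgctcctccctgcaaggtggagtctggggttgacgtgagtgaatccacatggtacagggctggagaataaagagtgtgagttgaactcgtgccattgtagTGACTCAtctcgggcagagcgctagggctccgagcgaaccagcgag
FOS: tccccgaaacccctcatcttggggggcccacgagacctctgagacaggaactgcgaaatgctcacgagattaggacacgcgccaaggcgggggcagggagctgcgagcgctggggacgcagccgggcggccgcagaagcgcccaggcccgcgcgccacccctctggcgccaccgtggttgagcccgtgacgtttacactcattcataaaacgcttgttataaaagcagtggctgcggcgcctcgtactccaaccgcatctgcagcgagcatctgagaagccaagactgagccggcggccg
JUN: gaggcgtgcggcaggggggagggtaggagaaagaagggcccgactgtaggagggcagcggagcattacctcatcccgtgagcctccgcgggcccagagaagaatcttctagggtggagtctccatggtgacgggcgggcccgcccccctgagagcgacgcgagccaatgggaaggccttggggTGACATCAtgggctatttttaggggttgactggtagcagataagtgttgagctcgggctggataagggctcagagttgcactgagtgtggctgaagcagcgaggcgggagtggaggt
CTGF: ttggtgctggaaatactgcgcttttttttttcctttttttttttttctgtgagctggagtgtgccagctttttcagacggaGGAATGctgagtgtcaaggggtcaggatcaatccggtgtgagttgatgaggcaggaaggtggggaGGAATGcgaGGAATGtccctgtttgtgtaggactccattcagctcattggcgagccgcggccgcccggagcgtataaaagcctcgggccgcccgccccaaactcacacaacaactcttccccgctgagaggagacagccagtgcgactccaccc

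The CTGF promoter held 3 TEAD elements, with first bases at −169, −104 and −95 from the gene's start, which counts as base 1. JUN held 1 cyclic AMP response element, TGACATCA, from base −67, and FOSL2 held 1 AP-1 element, TGACTCA, from base 5. FOS had no match to these letters in this window. Of the promoters not shown, YAP1 had 1 GGAATG from base −162, the first of the ATF3 promoters had 1 TGACATCA from base −123, and JUNB and the other ATF3 promoter had no match. Among all 35116 promoters of this length, 7.71% held TGANTCA, 7.72% held TGACNTCA and 14.0% held GGAATG. CpG dinucleotides numbered 40 in YAP1, 30 in FOS, 29 in FOSL2, 29 in JUNB, 16 in JUN and 15 in CTGF, and 4 and 1 in the ATF3 promoters, where the median of all promoters was 14 and the quartiles were 4 and 28. A match describes letters only.

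The lists of treated replicates 1 and 2 held 259572 and 245142 peaks, against 221110 and 223345 in untreated replicates 1 and 2. Read numbers are not known. The height of a peak is given as read coverage at its summit, recovered from the authors' fold enrichment, and it is the peak's own value: the lowest coverage of any listed peak was 4 in every list, and a site without a peak is not shown to be closed. Coverage differed between libraries as a whole. In the 105414 regions present in all 4 lists (shared regions), the median was 11 and 16 in the treated libraries and 23 and 18 in the untreated libraries, so each height was divided by its list's median to give a relative coverage. Even so, strength mattered across the genome: the median log2 difference of treated over untreated relative coverage was 0.51 in the weakest 10% of shared regions and −0.19 in the strongest 10%. Each comparison of height was therefore repeated on the region's rank within its list, an alternative added after the data were seen. The rank result is given beside each named shared region, but not for narrower sites within a region.

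The windows together held about as many peaks with treatment as without it. There were 253 and 257 peaks in the treated libraries and 223 and 252 in the untreated libraries, with means of 255 ± 2.83 and 237.5 ± 20.5 (SD, n = 2 each). The groups did not overlap, but treated replicate 1 and untreated replicate 2 differed by a single peak. The ratio of the means was 1.07, against 1.14 over all chromosomes used, and an exact two-sided permutation test (6 assignments) gave p = 0.333, the smallest value this design allows. Among peaks with a −log10 q of at least 5 the direction turned, with a log2 ratio of −0.18.

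Peaks were more numerous in both treated libraries in the windows of FOS, JUN and YAP1, and in none of the 9 windows were they less numerous in both. Among 50-kb tiles of the genome with at least 1 peak, 16.2% had more peaks in both treated lists and 8.64% had fewer, and no test sets 3 windows of 9 against those shares. The tiles are also not like the windows. The windows were 40 to 165 kb wide and held 11 to 49 regions, where the median tile with a region held 5. The YAP1 window held 44 and 36 peaks in treated cells and 29 and 31 in untreated cells, a ratio of means of 1.33. With a −log10 q of at least 5 this difference turned to a log2 ratio of −0.15. FOS had 21 and 23 peaks in treated cells against 15 and 19 in untreated cells, and JUN had 23 and 26 against 18 and 20, with a ratio of 1.29 for each gene. The other 6 windows overlapped between groups: FOSL1 had the most peaks, with 50 and 58 in treated and 51 and 62 in untreated libraries, and CTGF the fewest, with 13 and 17 in treated and 12 and 13 in untreated libraries. FOSL2, JUNB, ATF3 and CYR61 had 20 to 30 peaks in each treated library and 20 to 29 in each untreated library.

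**Figure D1:**
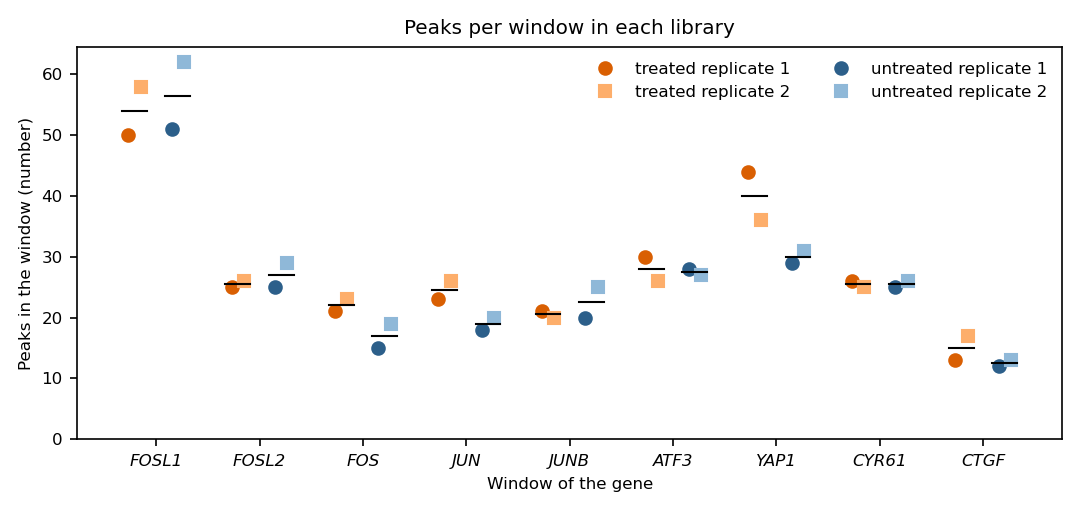
Number of peaks in each gene's window (vertical axis) in the 2 treated libraries (orange) and the 2 untreated libraries (blue), with a bar at each mean. The groups stand apart for FOS, JUN and YAP1, where both treated points lie above both untreated points, and overlap in the other 6 windows.

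The windows were dense in merged regions that every library shared. They held 38.2 regions per 100 kb, and a peak in all 4 lists was found at 113 of the 227 regions (49.8%), where the background over all regions was 28.2%. Regions present in 1 list only made up 65 of 227 (28.6%), against 45.9% of all regions. The shared part was largest in FOSL1, with 24 of 32 regions, and JUNB, with 13 of 18, and smallest in ATF3, with 11 of 33. FOSL2 had 12 of 31, FOS 7 of 18, YAP1 20 of 49, JUN 9 of 17, CYR61 10 of 18 and CTGF 7 of 11.

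Few merged regions had peaks in both lists of 1 group only, and all of those were weak. Regions called gained, listed for each treated library and for no untreated one, numbered 6 of 227 (2.64%), where 4.21% of all regions were of this kind. The reverse, a lost region, occurred once (0.441%, background 3.35%), and 15 regions (6.61%, background 7.85%) were in 1 treated and 1 untreated list, a pattern that treatment does not separate. The gained regions lay in the windows of YAP1 (3 regions), FOS, JUN and ATF3. Their summit coverages were 4 to 7. The balance of 6 gained to 1 lost depended on the setting, with 3 gained and 7 lost at a −log10 q of at least 5, and 10 gained and 15 lost among summits taken with 100 bp on either side, some of which were strong. One in YAP1, chr11:102111063-102111702, had coverages of 7 and 6 in the treated libraries, and one in FOS, chr14:75752687-75753460, had 4 and 7. At both of the other YAP1 regions the numbering of peaks in untreated replicate 1 skipped a number, which leaves it unknown whether a peak had been called and taken out. The lost region, chr1:86040512-86041391 near CYR61, had coverages of 7 and 6 in the untreated libraries, and the numbering of treated replicate 1 skipped a number there.

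Peak height in the windows showed no common direction. The median log2 difference of the 113 shared regions was 0.017, against 0.061 over all shared regions, and an exact two-sided permutation test of it gave p = 1. Both treated values lay above both untreated values at 27 regions (23.9%), where 27.2% of all shared regions did so, and both lay below at 31 regions (27.4%), where 22.2% did. By rank the counts were 26 higher (23%, background 22.5%) and 26 lower (23%, background 23.7%). Before scaling, 3 regions were higher (2.65%, background 4.39%) and 60 lower (53.1%, background 47.6%). Strong regions, with a mean relative coverage of at least 1, numbered 66, of which 15 were higher (22.7%, background 18%) and 25 lower (37.9%, background 32.5%). These shares stood near the background, so the windows as a whole did not stand out in height, and what follows describes individual sites. No test was run for a single region, because 2 libraries against 2 cannot pass a threshold.

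**Figure D2:**
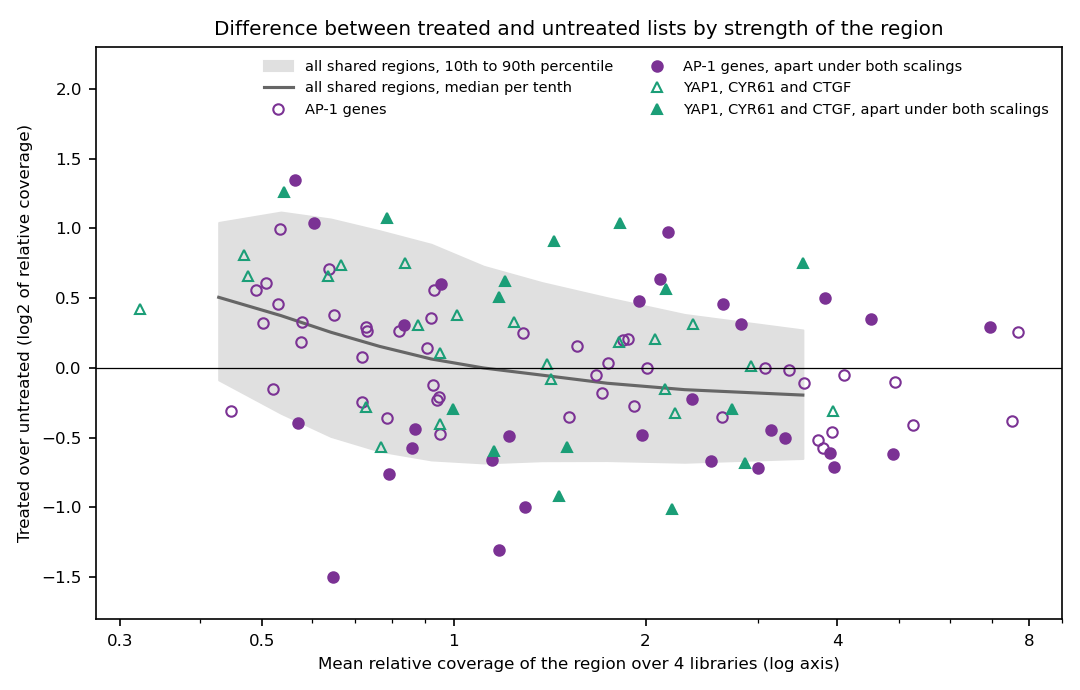
Log2 difference of treated over untreated relative coverage (vertical axis) against mean relative coverage on a log axis for the 113 shared regions, circles for AP-1 genes and triangles for YAP1, CYR61 and CTGF. Filled symbols are regions whose groups do not overlap in the same direction by median scaling and by rank. The grey band and line give the 10th to 90th percentile and the median of all shared regions, which slope downward from weak to strong sites, and most members lie inside the band.

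Split by gene set, the counts were close to the shares of all shared regions by rank. In the 6 AP-1 windows 16 of 76 shared regions were higher by rank (21.1%, background 22.5%) and 19 lower (25%, background 23.7%). In the 3 windows of YAP1, CYR61 and CTGF 10 of 37 were higher by rank (27.03%) and 7 lower (18.9%). Under median scaling 14 were higher (18.4%, background 27.2%) and 24 lower (31.6%, background 22.2%) in the AP-1 windows, and 13 higher (35.1%) and 7 lower (18.9%) in the other 3. The difference between the sets was not tested. The median log2 difference was −0.052 in the AP-1 windows and 0.20 in the other 3.

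The FOS window held 1 of the 3 sites that were higher in treated cells under median scaling, by rank and before scaling; the others lay near JUNB and CTGF. FOS encodes an AP-1 subunit and is an immediate early gene switched on within minutes of growth factor signalling. At chr14:75747560-75751363, which lies 2 kb from the middle of the window, summit coverage was 37 and 38 in the treated libraries and 29 and 30 in the untreated libraries. The treated libraries were higher even before scaling, although their typical peaks were lower. As relative coverage the site stood at 3.36 and 2.38 in treated cells and 1.26 and 1.67 in untreated cells, a log2 difference of 0.97, and it was higher by rank too. It is a broad site of 6 and 8 peaks in the treated lists and 5 and 6 in the untreated lists, and the exact 95% Poisson intervals of the 4 coverages overlapped, the treated ones running from 26.1 to 52.2 and the untreated ones from 19.4 to 42.8. Such intervals cover counting error only. They are set on unscaled coverage and do not allow for the lower list medians of the treated libraries.

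Taking summits with 100 bp on either side split this FOS site into narrower ones. The stretch chr14:75749392-75749946 had coverages of 21 and 26 in treated cells and 11 and 18 in untreated cells, a log2 difference of 1.27. The stretch chr14:75750670-75750893 had 27 and 38 against 25 and 30, a difference of 0.83. Both were higher in each treated library on the scaled values. Between them, chr14:75750077-75750318 and chr14:75750358-75750564 each lacked a summit in 1 untreated list. The strongest FOS site and the site at the edge of the window were lower in treated cells. The strongest, chr14:75760639-75761152, had 29 and 54 in treated and 121 and 82 in untreated libraries, a log2 difference of −0.71, and chr14:75725423-75726689 had 17 and 48 against 90 and 64, a difference of −0.72. Both were lower by rank as well. Without treated replicate 2 the difference at the edge site was −1.42, and without treated replicate 1 it was −0.35.

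The FOSL1 window, the densest of the 9 with 64 regions per 100 kb, had strong sites in both directions. FOSL1 encodes FRA1, the AP-1 subunit that sustained MAPK signalling stabilises in many carcinomas. Its strongest site, chr11:65654468-65657685, was also the strongest in any of the windows, with coverages of 87 and 141 in treated and 137 and 145 in untreated libraries. The groups overlapped under median scaling, at a log2 difference of 0.26, and the site was higher by rank. The highest difference, 1.34, was at a weak site, chr11:65641826-65642666, with 13 and 7 in treated and 7 and 6 in untreated libraries. It was higher by rank too, but without treated replicate 1 the difference was 0.42. Counts this small leave wide intervals, from 2.81 to 22.2 in the treated libraries.

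Most higher sites of the FOSL1 window lay on 1 side of its middle at 65665 kb, and most lower sites on the other. The split at the middle was chosen after the values were seen. On the side of lower coordinates, 6 of 12 shared regions were higher and 1 lower, and by rank 8 were higher and 1 lower. The sites added by rank were strong ones, chr11:65640815-65641494 and chr11:65654468-65657685. Their groups overlapped under median scaling, at differences of −0.0037 and 0.26. At the latter, rank percentiles were 99.92 and 99.94 in treated and 99.05 and 99.84 in untreated libraries. On the side of higher coordinates 2 of 12 were higher and 5 lower, or 1 and 4 by rank. Of all shared regions 27.2% were higher and 22.2% lower, or 22.5% and 23.7% by rank. The lowest difference, −0.62, was at chr11:65685860-65688274, where coverage was 36 and 71 in treated and 115 and 123 in untreated libraries, and it was lower by rank as well. In RefSeq order the protein-coding neighbours of FOSL1 are CCDC85B and C11orf68, and sites were not assigned to any of these genes.

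FOSL2, which encodes FRA2, had no shared region that was higher by median scaling and 4 of 12 that were lower. By rank 1 was higher and 3 were lower. The shares over all shared regions were 27.2% higher and 22.2% lower, or 22.5% and 23.7% by rank. At chr2:28614757-28615330 coverage was 6 and 13 in the treated libraries and 35 and 33 in the untreated libraries, a log2 difference of −1.30. Before scaling, the treated intervals ended at 13.1 and 22.2, below the untreated ones, which began at 24.4 and 22.7. List medians were lower in the treated libraries, so this gap does not carry over to the scaled difference. The site was lower by rank. With peaks up to 150 bp apart merged, it joined its neighbours and the difference was −0.67. A second site, chr2:28630338-28631539, had 4 and 13 in treated and 19 and 21 in untreated libraries. Its difference of −0.76 was lower by rank too. The difference was −0.34 without treated replicate 1 and −1.61 without treated replicate 2. The strongest FOSL2 site lay beside this second site at chr2:28631853-28632712, with 53 and 75 against 117 and 92. There the difference of −0.10 was lower by median scaling and higher by rank, so no direction is given for it.

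JUN is the main partner of FOS proteins, and adjoining sites in its window differed in opposite directions. The strongest site, chr1:59247054-59250277, had coverages of 56 and 63 in treated and 155 and 95 in untreated libraries, a log2 difference of −0.41, and overlapped by rank. Directly beside it chr1:59246447-59247002 had 24 and 47 in treated and 40 and 28 in untreated libraries, a difference of 0.64 that was higher by rank too. A strong site on its other side, chr1:59243217-59246443, named after its values were seen, had 57 and 79 in treated and 80 and 80 in untreated libraries, with a log2 difference of 0.35, and was higher by rank. Merging peaks up to 150 bp apart joined all 3 regions, and the joint difference was −0.25. Within the strong site, summits with 100 bp on either side gave differences of either sign. The stretch chr1:59249798-59250127 had 35 and 48 in treated and 155 and 87 in untreated libraries, a difference of −0.89. The highest treated summits, 56 and 63, fell in the adjoining chr1:59249538-59249789, with 95 in untreated replicate 2 and no summit in untreated replicate 1. The value of −0.89 thus depends on where the stretches were cut. Further off, chr1:59248874-59249245 had 18 and 21 in treated against 10 and 17 in untreated libraries, a difference of 1.11.

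The JUNB window had the highest share of lower sites, with 7 of 13 shared regions lower and 1 higher, or 6 and 1 by rank. Over all shared regions 22.2% were lower and 27.2% higher, or 23.7% and 22.5% by rank. JUNB is a JUN-related subunit that often acts in place of JUN in FOS dimers. All 6 of its strong regions were lower by median scaling, where 32.5% of all strong shared regions were, and 4 of the 6 were lower by rank. At chr19:12886201-12886754 coverage was 8 and 16 in treated and 37 and 33 in untreated libraries, a log2 difference of −0.99 that was lower by rank. The strongest site, chr19:12899364-12901457, had 38 and 43 against 88 and 89, a difference of −0.51, and overlapped by rank. The single higher site was weak: chr19:12895069-12896140 had 11 and 10 in treated and 8 and 8 in untreated libraries, a difference of 1.04. It was higher by rank and before scaling as well, but merging peaks up to 150 bp apart joined 4 regions, chr19:12892736-12896718, and gave −0.37, with the untreated heights taken from another of them.

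ATF3 had the lowest difference of all 9 windows. At chr1:212731655-212732748 coverage was 4 and 5 in the treated libraries and 21 and 18 in the untreated libraries, a log2 difference of −1.50. Before scaling, the treated intervals ended at 10.2 and 11.7 and the untreated ones began at 13.0 and 10.7, which does not allow for the list medians. The site was lower by median scaling, by rank and before scaling. The treated coverages stood at or next to 4, the lowest coverage of any listed peak. No difference was obtained for this site with lists of equal length, a −log10 q of at least 5 or coverage of at least 10. The strongest ATF3 site, chr1:212781023-212783493, had 28 and 57 in treated and 89 and 94 in untreated libraries, a difference of −0.57 that overlapped by rank. A weak site at chr1:212756905-212757526 had 6 and 14 against 10 and 5, a difference of 0.995, which also overlapped by rank. Of 11 shared regions in this window, 2 were higher and 3 lower (background 27.2% and 22.2%), or 1 and 2 by rank (background 22.5% and 23.7%).

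**Figure D3:**
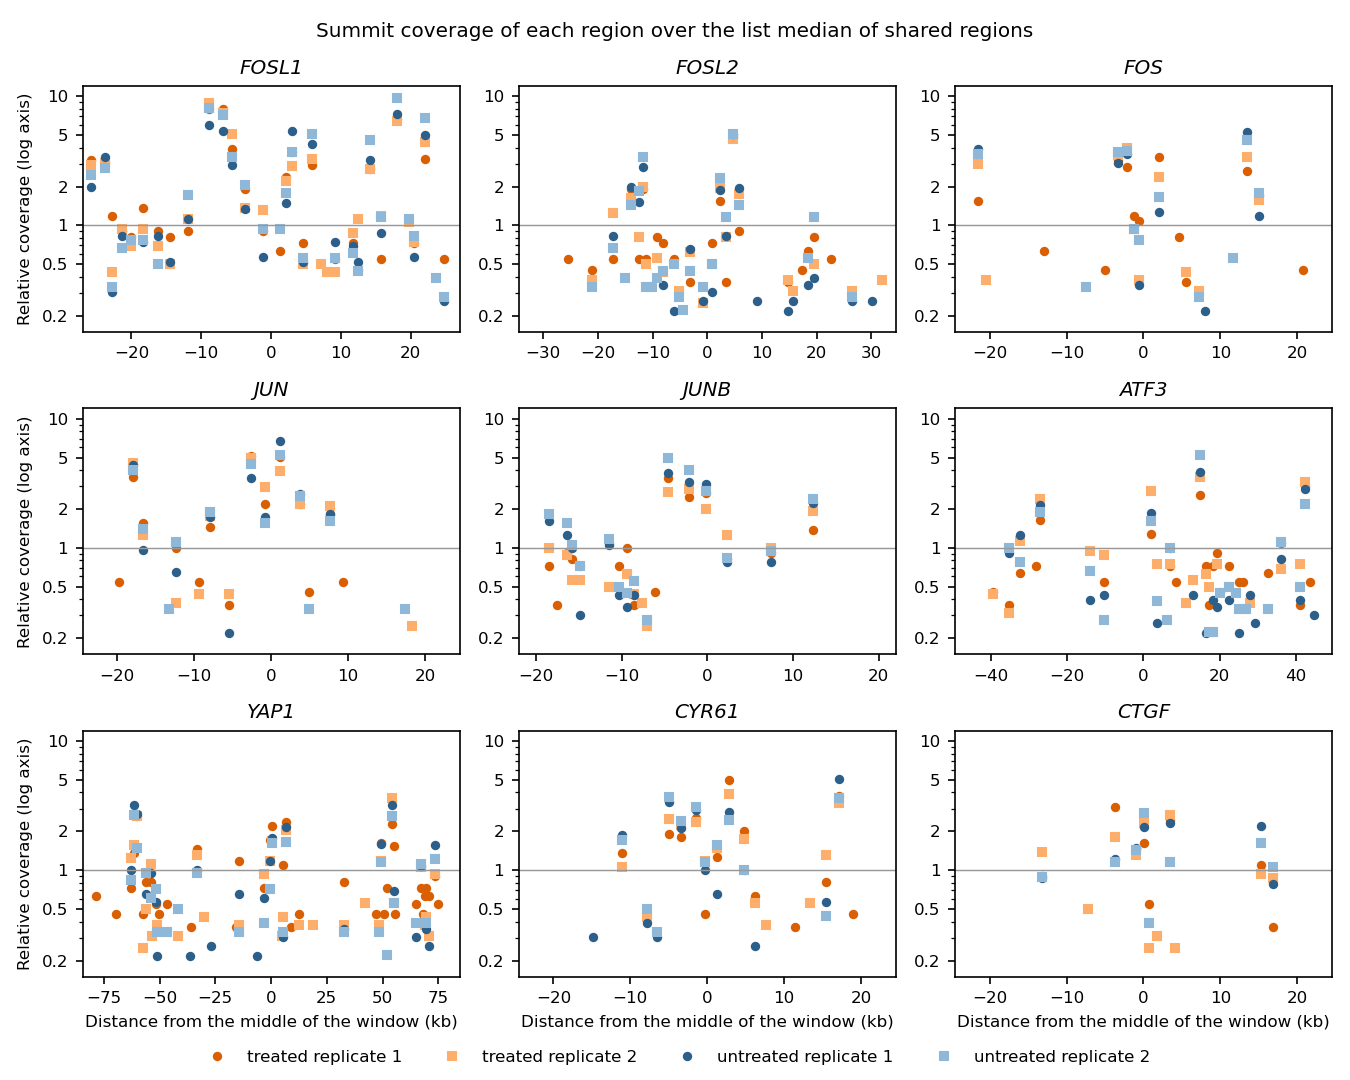
Relative coverage on a log axis (vertical) of every region in each window against its distance from the middle of the window in kb (horizontal), with treated libraries in orange and untreated libraries in blue; a region has a point only for a list with a peak there. The line marks the list median of shared regions. In FOSL1, 6 of 12 shared regions left of the middle are higher and 5 of 12 right of it lower in both treated libraries, and in CYR61 3 of 5 are lower on the left and 3 of 5 higher on the right. Genome-wide, 27.2% of shared regions are higher and 22.2% lower.

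YAP1 had the widest window, and its shared regions were more often higher than lower: 7 of 20 were higher and 3 lower, or 5 and 3 by rank. Genome-wide 27.2% of shared regions were higher and 22.2% lower, or 22.5% and 23.7% by rank. Of the 7 higher sites, 5 had a mean relative coverage under 1. Across the genome, 49.0% of the weakest 10% of shared regions were higher, and 12.2% of the strongest 10%. The largest positive difference was at chr11:102047766-102048299, where coverage was 12 and 7 in treated and 7 and 6 in untreated libraries, a log2 difference of 1.26. It was higher by rank, but without treated replicate 1 the difference was 0.42. The largest negative difference was at a stronger site, chr11:101980476-101982065, with 15 and 25 in treated and 74 and 48 in untreated libraries. That difference was −1.01. Before scaling, the treated intervals ended at 24.7 and 36.9 while the untreated ones began at 58.1 and 35.4, which does not allow for the list medians. The site was lower by rank, but with peaks up to 150 bp apart merged it joined its neighbour and the difference was −0.16. The strongest YAP1 site, chr11:102096488-102097115, had 25 and 58 in treated and 74 and 47 in untreated libraries, a difference of 0.017, with overlapping groups, also by rank.

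CTGF had the fewest regions, 11, and a site that was higher in treated cells even before scaling. CTGF is among the genes most often used to read out YAP and TEAD activity. At chr6:132266831-132270794 coverage was 34 and 29 in treated cells and 28 and 21 in untreated cells. As relative coverage this was 3.09 and 1.81 in treated and 1.22 and 1.17 in untreated libraries, a log2 difference of 1.04, and the site was higher by rank. The treated intervals, from 19.4 to 47.5, overlapped the untreated ones, from 13.0 to 40.5.

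Narrower summits parted the CTGF site into stretches that did not all differ in the same way. The stretch chr6:132268059-132268318 had coverages of 34 and 29 in treated and 19 and 21 in untreated libraries, a log2 difference of 1.32. Further on, chr6:132268808-132269078 had summits of 14 and 18 in the treated lists and none in either untreated list. Between them chr6:132268461-132268660 had a summit of 18 in untreated replicate 1 only. At chr6:132267558-132267851 summits were 28 and 16 in the untreated lists, 26 in treated replicate 2 and absent in treated replicate 1. At chr6:132269841-132270256 the groups overlapped, at a difference of 0.0067. The strongest CTGF site, chr6:132272170-132272861, had 18 and 37 in treated and 50 and 50 in untreated libraries, with overlapping groups, also by rank, and a difference of −0.33. At chr6:132287547-132288074 coverage was 12 and 15 in treated and 51 and 29 in untreated libraries, a difference of −0.92 that was lower by rank too.

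In the CYR61 window the higher and lower sites separated by position. On the side of lower coordinates from the middle at 86047.5 kb, 3 of 5 shared regions were lower and 0 higher, and on the other side 3 of 5 were higher and 0 lower, with the same counts by rank. Among all shared regions 27.2% were higher and 22.2% lower, or 22.5% and 23.7% by rank. This split too was chosen after the values were seen. The higher side included chr1:86051476-86053138, with coverages of 22 and 28 in treated and 23 and 18 in untreated libraries, a log2 difference of 0.91. It also held chr1:86062615-86063128, with 9 and 21 against 13 and 8, a difference of 1.08, and both were higher by rank. A stronger site there, chr1:86049522-86051237, named after its values were seen, had 55 and 62 in treated and 65 and 44 in untreated libraries and a difference of 0.75, and was higher by rank. On the lower side chr1:86042114-86043048, likewise chosen, had 21 and 40 in treated and 78 and 66 in untreated libraries, a difference of −0.68 that was lower by rank. The strongest CYR61 site, chr1:86064155-86065132, had 41 and 53 against 117 and 65 and overlapped under both scalings, at −0.31.

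**Figure D4:**
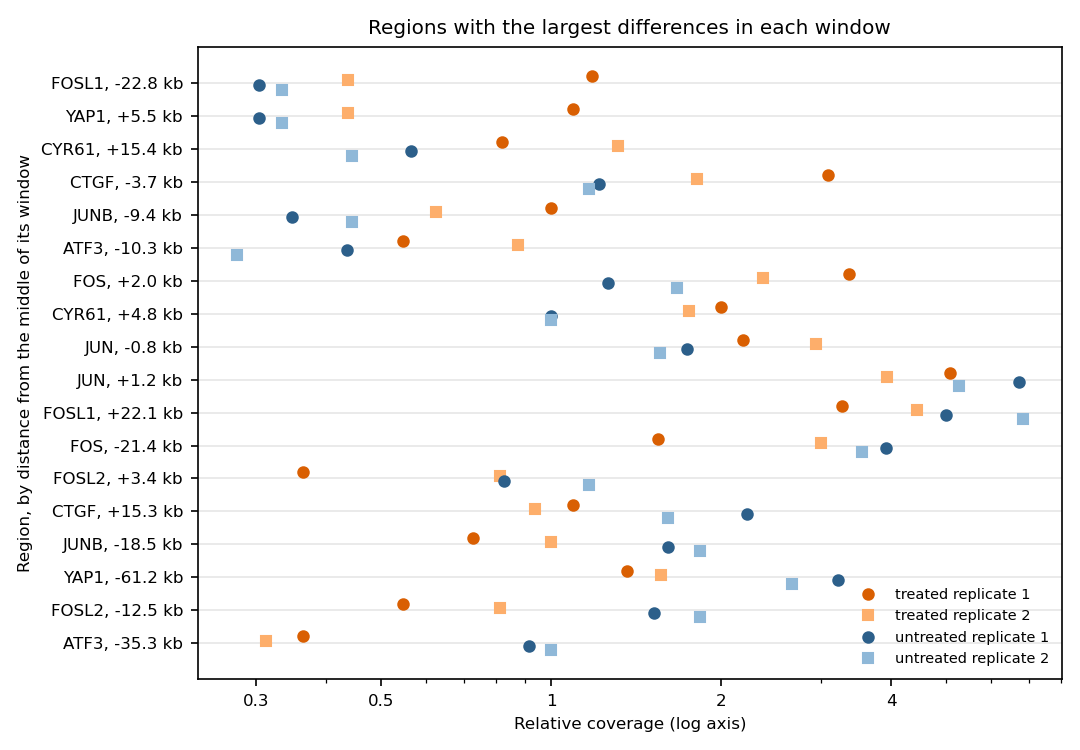
Relative coverage on a log axis (horizontal) in each treated library (orange) and untreated library (blue) at the 18 regions with the largest non-overlapping difference in their window, named by gene and distance from the middle of the window. The upper 9 regions are higher and the lower 9 lower in both treated libraries, and 16 of the 18 kept that direction without overlap by rank.

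The strongest site of each window differed in height between genes. The mean relative coverage over the 4 libraries was 7.68 in FOSL1, 5.26 in JUN, 4.93 in FOSL2, 3.96 in FOS, 3.93 in CYR61, 3.80 in ATF3, 3.73 in JUNB, 2.93 in YAP1 and 2.23 in CTGF. FOS, CYR61, ATF3 and JUNB lay close together in this order, and their values in single libraries overlapped. At none of these 9 strongest sites was the treated coverage higher in both libraries before scaling. At the strongest site of FOS alone were both treated libraries lower by median scaling, by rank and before scaling. Peak height is not a measure of transcription, and expression was not analysed here.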

How the data were processed

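ATAC-seq was done on 2 treated and 2 untreated libraries with reads of 101 bases, per the labels. The hg19 build, MACS2, Bowtie2, Trimmomatic and Picard are listed in the submitters' processing notes; no source used here gives settings, filters or a shift of read ends. Peaks were called per library. The deposited intervals were 500 bp wide, and in each list the authors had scaled the score to sum to 1000000. The fold enrichment ratio and the −log10 p-value and q-value are the authors' own values per peak. Fold values were whole multiples of 1 step, which gave summit coverage.

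Overlapping peaks (1 bp or more) were merged with Python 3.11.15, numpy 2.4.6, pandas 2.3.3 and scipy 1.17.1, and figures drawn with matplotlib 3.10.9. A region's height was its highest summit coverage over its list's median in shared regions. Differences are log2 of the treated mean over the untreated mean. Merging and calls were tried on simulated sites that were set far apart and mostly stronger than those here. That trial cannot show how they act where peaks are dense or weak.

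Named were the strongest region of each window, gained or lost regions that reached a coverage of 10 in each list holding them (there were 0), and the 2 shared regions per window with the largest non-overlapping difference in either direction. The windows, genes and motifs were chosen with earlier results of these data known. Marker genes and other pathway genes were not analysed here, since they need hg19 gene positions. Alternatives were lists cut to equal length, a −log10 q threshold of 5, windows widened by 20 kb, merging up to 150 bp, summits with 100 bp on either side, score, coverage of at least 10, unscaled coverage, rank (added after the data were seen), a replicate block and omission of each library in turn.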

Additional observations from a re-analysis of the deposited data

How the results depend on the processing

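The counts and the overall median depended on settings. Of 377 values of single windows and regions under alternatives, 19 changed sign, 15 of them where the groups overlapped in the reported value. Where the groups had stood apart, 4 reversed: peaks in the YAP1 window from a −log10 q of 5 upward (−0.15), the JUN region from 59246447 (−0.25) and the JUNB region from 12895069 (−0.37) with peaks up to 150 bp apart merged, and the strongest FOSL2 region by rank (0.0053). The log2 ratio of peaks in all windows was 0.10, and reversed to −0.18 from a −log10 q of 5 upward. The median log2 difference of 0.017 reversed to −0.0093 with lists of equal length, to −0.051 with peaks up to 150 bp apart merged and with coverage of at least 10, to −0.073 by the authors' scaled score and to −0.59 without scaling. Leaving out 1 library at a time it ranged from −0.105 to 0.051, and it was negative without treated replicate 2 (−0.089) and without untreated replicate 1 (−0.105). Gained and lost regions, 6 and 1, were 3 and 2 with lists of equal length, 3 and 7 from a −log10 q of 5 upward, and 10 and 15 with summits of 100 bp on either side, and there were 3 lost regions in windows widened by 20 kb. Leaving out a library gave 14 to 35 gained and 6 to 12 lost regions, for every library left out, since 1 list then decides for its group. Regions in all lists, 113, numbered 74 at that q and 171 in widened windows. Higher regions numbered 17 with coverage of at least 10 and 3 without scaling, where 60 were lower; leaving out a library gave 37 to 50 higher and 45 to 62 lower. The cause of these shifts was not tested, except that fewer libraries or a larger window change the counts by construction. With replicate numbers as a block the log2 ratio of peaks was 0.105 and the median difference 0.0035. The labels do not say that equal numbers mark a shared batch. Deviations of same-numbered libraries within their groups had a correlation of −0.052 over 105414 regions. With 2 libraries per group, this value cannot decide whether such libraries share a batch. Depth limits weak sites most: at coverages of 4 to 7 the intervals span most of the differences seen, and the number of reads is unknown.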

Other observations

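Sites in the windows were also counted by the direction of transcription, after the patterns near FOSL1 and CYR61 had been seen. Strands came from RefSeq for 7 genes and from general knowledge for FOSL1 and CYR61. On the side of the window's middle that lies downstream, 18 of 55 shared regions were higher in both treated libraries and 9 lower, and on the upstream side 9 of 58 were higher and 22 lower. Over all shared regions 27.2% were higher and 22.2% lower. By rank the counts were 19 and 7 downstream and 7 and 19 upstream. FOSL1 and CYR61, which prompted the split, carried most of the downstream lean: in the other 7 windows 9 regions were higher and 8 lower downstream, and 7 higher and 14 lower upstream. Of the 9 windows, 5 had more higher than lower regions downstream and 3 more lower, and 6 had more lower than higher regions upstream; YAP1 alone had more higher regions upstream. The median mean relative coverage was 1.42 downstream and 1.19 upstream. The middle of a window is not the gene's start, the split was chosen on these values, and it was not tested.

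At narrow width (summits with 100 bp on either side), 10 sites in the windows had a summit in both treated lists only and 15 in both untreated lists only. More, 49, had a summit in 1 treated and 1 untreated list, a pattern that treatment does not separate. In a pair chosen after its values were seen, chr14:75744326-75744567 near FOS had coverages of 24 and 36 in the treated libraries and no untreated summit. Beside it chr14:75744063-75744285 had no treated summit and 38 and 33 in the untreated libraries. Both fall within a single merged region that every list holds.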
